A study of Mus musculus with 16 samples.

Results

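The 10 genes described here encode the surface receptors that detect lipopolysaccharide (LPS) and related microbial products, and the adaptors and enzymes that carry their signal: Tlr4, Tlr2, Cd14, Ly96, Myd88, Ticam1, Ticam2, Irak2, Irak3 and Traf6. They were chosen by function, as the receptor arm of the TLR4 pathway. Overlapping ATAC-seq peaks of the 4 deposited lists were merged into 37648 regions, and a region was assigned to a gene when its midpoint lay within 100 kb of the gene's transcription start site (TSS) in GRCm38. This gave 128 regions, from 6 at Tlr4 to 21 at Cd14, and none was shared between the genes. ATAC-seq marks open chromatin by the insertion of adaptors with Tn5 transposase. The cells were macrophages grown from bone marrow of C57BL/6J mice, deprived of serum for a day and treated on day 8. Veh cells received DMSO and T0 cells 500 nM T0901317, a synthetic agonist of the liver X receptor (LXR), each for 3 h. LPS cells received DMSO, and T0-LPS cells T0901317, for 3 h, and then 10 ng/mL LPS in the same medium for 2 h more, so that each comparison of a group with LPS and a group without it also compared different culture times, and these cannot be told apart. Each group had 4 libraries of 50000 cells, whose reads the authors pooled before calling peaks. There is therefore 1 value per group and no replicate error, no p-value is given, and the order of any close values is undetermined. The labels do not say whether libraries came from separate mice.

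The Veh list held 35551 peaks, the T0 list 29839, the LPS list 33181 and the T0-LPS list 31085, and 26439 regions had a peak in all 4. The 128 regions held a peak in 118 cases for Veh, 97 for T0, 114 for LPS and 105 for T0-LPS. Only peaks at macrophage enhancers, marked by H3K27ac or H3K4me2 in other experiments, had been kept by the authors, so a peak may be missing because it was not called or because the filter removed it. All 8 macrophage markers examined, among them Adgre1, Csf1r and Spi1, had a peak within 1 kb of the TSS in every list. None of 3 T cell markers had one, whereas 1 of 3 B cell markers (Ms4a1), 1 of 3 neutrophil markers (S100a8) and 2 of 3 dendritic cell markers (Flt3 and Zbtb46) did, in all 4 lists. Each peak carries the score of the peak caller, which grows with sequencing depth, and the depth per library is unknown. Scores were therefore turned into percentiles within each list, in which 0 is the weakest region and 100 the strongest, and a difference between 2 lists is given in percentile points.

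LPS is passed by CD14 to a complex of TLR4 and MD-2, the product of Ly96. At the plasma membrane the complex signals through MyD88 and IRAK kinases to the ubiquitin ligase TRAF6 and on to NF-kB and MAP kinases. From endosomes it signals through TRAM (Ticam2) and TRIF (Ticam1) to interferon genes. TLR2 detects bacterial lipopeptides together with TLR1 or TLR6 and uses MyD88 as well. IRAK-M, the product of Irak3, restrains the pathway in macrophages.

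Sequences are shown for the regions on which the comparisons below turn, so that the letters under each peak can be read beside its values. They were read from GRCm38 on the plus strand. Capitals mark matches, to the motifs named with each, within the central 200 bases searched. The nuclear receptor motif AGGTCA in the Tlr2 stretch runs past those bases and was left unmarked. At the Tlr2 start site, the region with the largest difference between the Veh and LPS lists among those of the 10 genes held a match to the NF-kB motif on the minus strand, in bases chr3:83841597-83841626:
Tlr2 start site: gtgagggaagGGGATGTCCCcaggtcaggg
The region at the RefSeq start site of Myd88, which had no T0 peak, held NF-kB matches on both strands that overlap by all but 1 base each, in chr9:119339931-119339960, and upstream of the transcript a match on the minus strand to GAAANNGAA, the core of the interferon-stimulated response element (ISRE), in chr9:119340042-119340135:
Myd88 start site: gatcccacgcGGGGGTCTCCCgcagacatg
Myd88 upstream: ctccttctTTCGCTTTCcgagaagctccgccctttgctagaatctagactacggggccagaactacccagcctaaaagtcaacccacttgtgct
At Irak2 the central 200 bases of 3 intronic regions are given: the region 30430 bp downstream of the TSS, low in T0 and high with LPS (chr6:113668797-113668996, NF-kB), the strongest of the 3 Irak2 regions with peaks only after LPS, 23221 bp downstream (chr6:113661588-113661787, PU.1 and the nuclear receptor motif AGGTCA), and the region found only in Veh and T0-LPS, 16739 bp downstream (chr6:113655107-113655306, AP-1 and AGGTCA):
Irak2 30430: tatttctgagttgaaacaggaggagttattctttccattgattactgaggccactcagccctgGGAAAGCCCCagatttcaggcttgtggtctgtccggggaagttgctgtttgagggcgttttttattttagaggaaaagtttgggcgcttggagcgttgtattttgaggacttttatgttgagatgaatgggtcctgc
Irak2 23221: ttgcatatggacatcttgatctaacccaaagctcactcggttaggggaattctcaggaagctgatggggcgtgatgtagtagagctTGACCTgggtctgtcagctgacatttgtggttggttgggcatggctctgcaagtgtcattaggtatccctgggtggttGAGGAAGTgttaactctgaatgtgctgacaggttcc
Irak2 16739: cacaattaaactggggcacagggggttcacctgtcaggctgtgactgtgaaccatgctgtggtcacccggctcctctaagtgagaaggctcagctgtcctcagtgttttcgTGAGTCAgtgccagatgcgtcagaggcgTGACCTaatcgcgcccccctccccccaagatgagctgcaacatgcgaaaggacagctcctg
For Irak3 the intronic region present only in Veh is shown (chr10:120189309-120189508, PU.1), and for Traf6 the region present only in T0-LPS (chr2:101679304-101679480, C/EBP and NF-kB):
Irak3 12721: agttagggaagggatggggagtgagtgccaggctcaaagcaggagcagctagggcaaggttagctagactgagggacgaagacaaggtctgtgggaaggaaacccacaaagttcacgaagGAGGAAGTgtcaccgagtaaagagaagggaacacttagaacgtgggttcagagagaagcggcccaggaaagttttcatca
Traf6 963: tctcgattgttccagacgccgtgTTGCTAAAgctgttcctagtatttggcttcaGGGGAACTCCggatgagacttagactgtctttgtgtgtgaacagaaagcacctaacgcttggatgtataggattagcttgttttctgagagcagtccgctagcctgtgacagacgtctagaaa

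The chromatin at the start sites of 9 of the 10 genes had a peak in all 4 lists, and only Myd88 did not. Among the 11312 RefSeq genes with a region within 1 kb of a curated coding start site, the nearest such region was held by all 4 lists for 87.9%. The start sites of Tlr4 and Traf6 were among the strongest regions of every list, with percentiles of 92.7 to 97.3 for Tlr4 and of up to 97.6 for Traf6. Ticam1, whose product is TRIF, came next at 83.8 to 93.6, and Irak2 lay at 70.1 to 76.7. The start sites of Cd14 (60.0 to 79.8), Ticam2 (64.2 to 80.0) and Ly96 (49.3 to 64.1) were of middle rank. The region at Tlr2 was weak without LPS and strong with it, and that at Irak3 was lowest in T0.

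**Figure D1:**
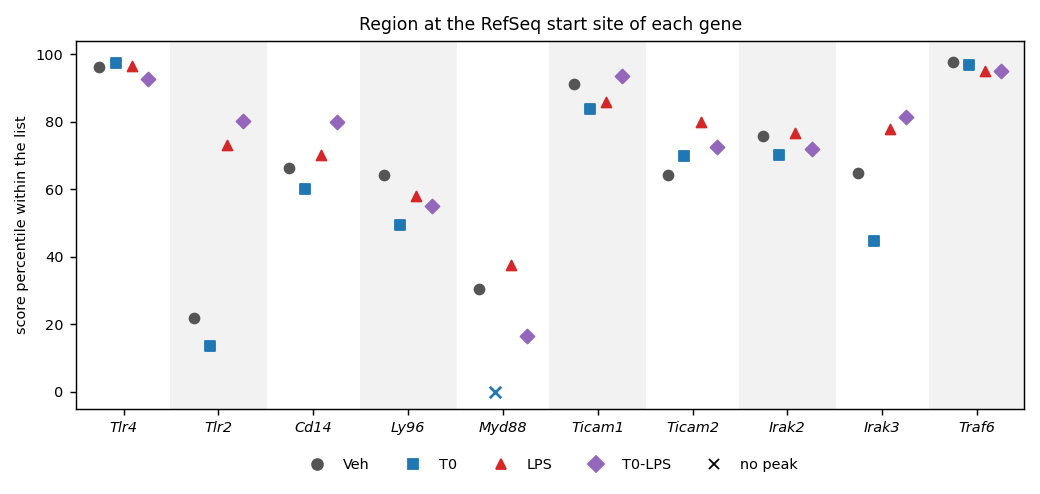
Score percentile within each list (vertical axis) of the region at the RefSeq start site of the 10 genes, with 1 symbol per pooled list and a cross at 0 for a list without a peak. Tlr4 and Traf6 sit at 92.7 or higher in every list, Tlr2 moves from 21.7 in Veh and 13.4 in T0 to 73.0 in LPS and 80.3 in T0-LPS, and Myd88 has no T0 peak.

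Tlr4, on the plus strand of chr4 with its gene model starting at 66827584, was the only gene of the 10 whose regions all had a peak in every list. Its 6 regions also all lay nearer to its own RefSeq start site than to that of another coding gene. At the start site (chr4:66827303-66827982, untranslated exon) the scores were 1154 for Veh, 1063 for T0, 1047 for LPS and 818 for T0-LPS. An intronic region 24580 bp downstream had percentiles of 61.7 for Veh, 56.8 for T0, 84.0 for LPS and 74.9 for T0-LPS, and was 22.3 points higher in LPS than in Veh. The other 4 regions, from 30663 bp upstream to 29655 bp downstream, moved by less than 20 points in each of the 4 comparisons.

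Tlr2, on the minus strand of chr3, had the region with the largest difference of the 128. At its start site (chr3:83841142-83841895) the scores were 181 for Veh, 126 for T0, 529 for LPS and 571 for T0-LPS. Their percentiles were 21.7, 13.4, 73.0 and 80.3 in the same order, so that both lists with LPS stood far above both without it. The rank was 51.3 points higher in LPS than in Veh, a difference that 99 of the 30629 regions in both lists (0.323%) equalled or exceeded. It was 66.9 points higher in T0-LPS than in T0, which 35 of 26831 regions (0.130%) reached. The peak was also wider with LPS, at 751 bp for LPS and 737 bp for T0-LPS against 247 bp for Veh and 254 bp for T0. The other 8 regions did not share this difference, as their percentiles in LPS ran from 11.3 points below to 2.2 points above those in Veh where both had a peak. A region 29635 bp downstream had percentiles of 49.2 for Veh, 19.1 for T0, 41.2 for LPS and 21.4 for T0-LPS, with both T0901317 lists low. A region 43804 bp downstream had 31.0, 21.1, 33.1 and 10.8 in the same order, a difference of 22.4 points between LPS and T0-LPS. One 23703 bp upstream had 31.3, 18.2, 32.5 and 40.4, which was 22.1 points higher in T0-LPS than in T0. The region 51588 bp downstream had a peak only in Veh, at percentile 0.523, among the weakest of that list.

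Cd14, on the minus strand of chr18, had 21 regions, of which only 5 were nearer to its RefSeq start site than to that of another coding gene. CD14 is a co-receptor that binds LPS. At the start site (chr18:36726307-36726962) the percentiles were 66.4 for Veh, 60.0 for T0, 70.2 for LPS and 79.8 for T0-LPS. The region 6658 bp downstream had 37.3, 22.9, 64.4 and 67.6 in the same order, again with both LPS lists above both others. It was 27.1 points higher in LPS than in Veh and 44.7 points higher in T0-LPS than in T0. A region 27040 bp downstream, nearer to the start site of E230025N22Rik, had percentiles of 11.6 for Veh, 16.3 for T0, 48.2 for LPS and 32.4 for T0-LPS. Its neighbour 26208 bp downstream had 64.1, 46.0, 61.8 and 71.7, and was 25.7 points higher in T0-LPS than in T0. Of the 6 Cd14 regions that lacked a peak in some list, 2 were found with LPS and not without it, at percentile 33.6 in LPS and 32.4 in T0-LPS for the one 13213 bp downstream and 23.6 and 16.4 for the one 7082 bp upstream. Another, 35197 bp downstream, had a peak only in LPS, at percentile 44.0. The regions 18426 and 10777 bp downstream had peaks in every list but T0, at percentiles of 17.9 in Veh, 29.3 in LPS and 9.86 in T0-LPS for the former, and 1.68, 4.80 and 6.84 for the latter. The last, 1033 bp upstream, had a peak only in Veh, at percentile 15.0.

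Ly96, which encodes MD-2, lies on the plus strand of chr1. Its start-site region (chr1:16688051-16689080) had percentiles of 64.1 for Veh, 49.3 for T0, 57.9 for LPS and 55.0 for T0-LPS, highest in Veh. Of its 8 regions 4 had a peak in all lists. A pair of neighbouring intronic regions had different patterns, as the one 8183 bp downstream had a peak only in T0-LPS, at percentile 10.2, and the one 8666 bp downstream only in Veh and LPS, at 6.14 and 3.31. A region 45702 bp upstream, in an untranslated exon of Eloc, had percentiles of 23.1 in Veh, 26.5 in T0 and 1.82 in LPS, with no T0-LPS peak. A region 70056 bp upstream, in an intron of Ube2w, had peaks in Veh (14.2) and LPS (9.74) only. None of the peaks in these 4 regions ranked above percentile 26.5.

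**Figure D2:**
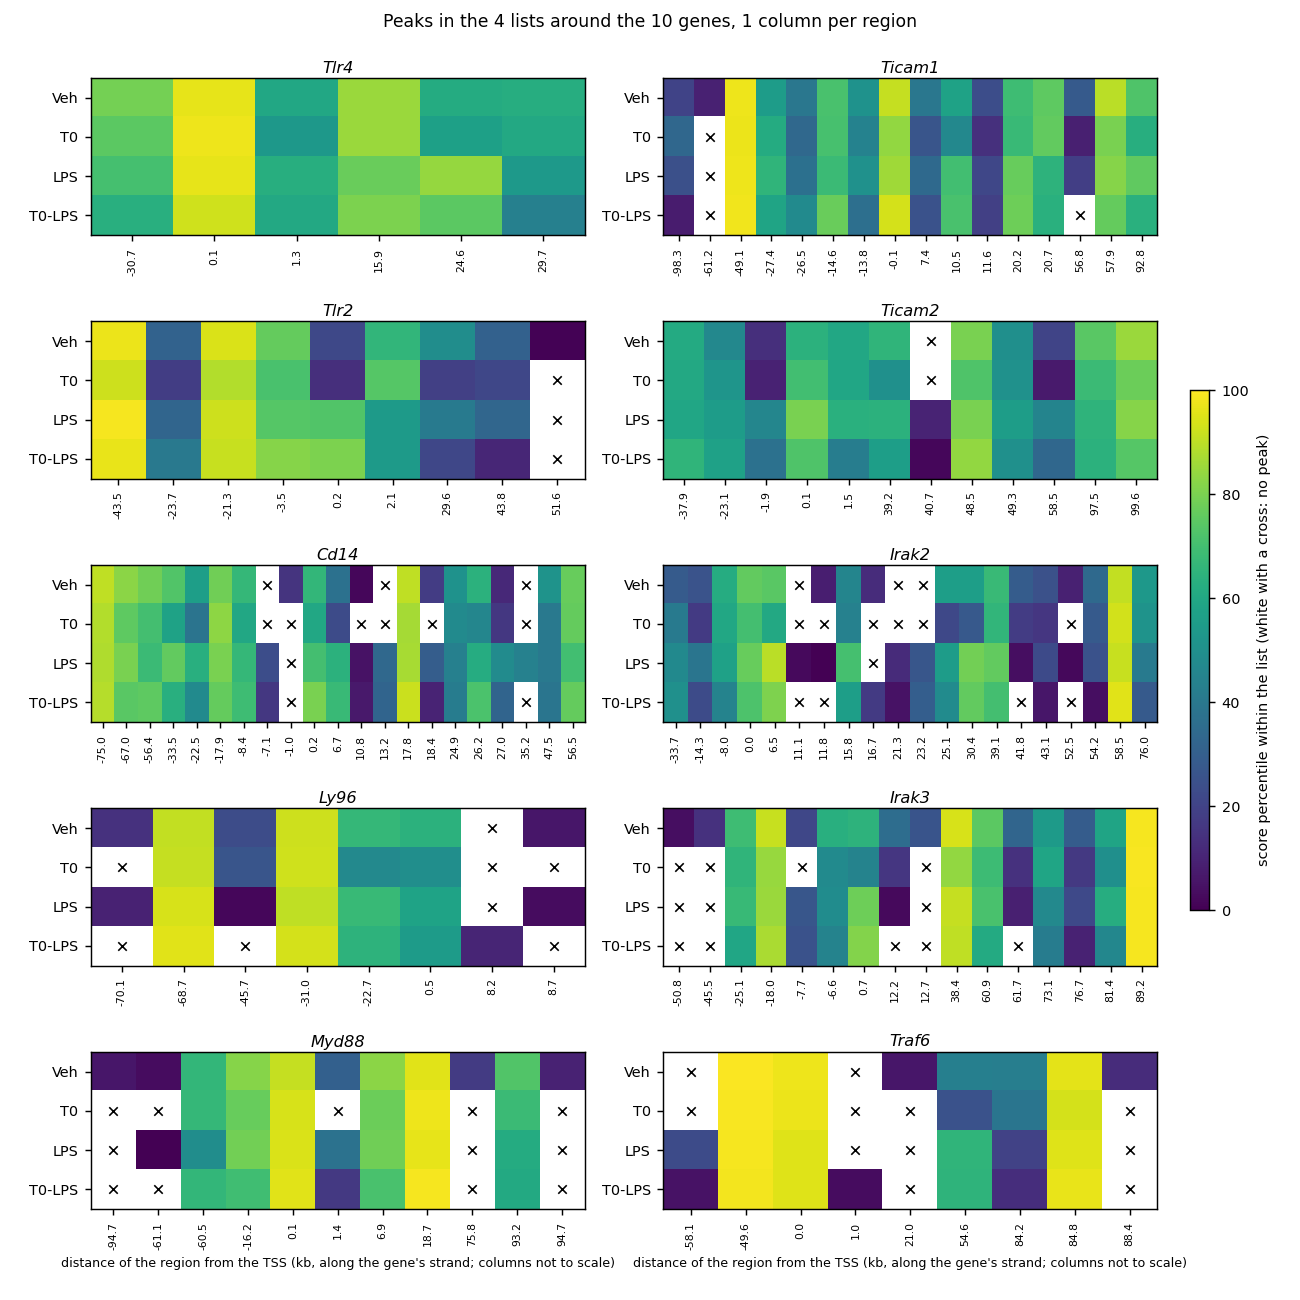
Score percentile (colour, 0 to 100) of each region of the 10 genes in each of the 4 pooled lists, with 1 column per region ordered by its distance from the TSS in kb and a white cell with a cross where the list has no peak. Tlr4 has no absent peak among its 6 regions, while crosses elsewhere fall mostly in columns of dark, low-scoring cells.

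Myd88, on the minus strand of chr9, was the gene whose start site lacked a peak in 1 of the lists. The GENCODE gene model begins at 119341411, where a strong region (chr9:119340901-119341642, percentiles 91.2 for Veh, 94.1 for T0, 94.4 for LPS and 95.4 for T0-LPS) lies 22 bp from the start site of the neighbouring gene Acaa1a. The RefSeq start of Myd88 is at 119340018, and the region whose midpoint lies 6 bp from it (chr9:119339888-119340135, in an untranslated exon) had scores of 232 in Veh, 242 in LPS and 132 in T0-LPS and no T0 peak. Its percentiles were 30.5 in Veh, 37.6 in LPS and 16.6 in T0-LPS, lower by 21.0 points in T0-LPS than in LPS. The peak numbers of the T0 list left no gap there for a peak taken out by the enhancer filter. Among 11021 RefSeq genes with a region within 1 kb of a curated coding start site in the Veh list, 7.81% had none in T0. It was the only one of 85 regions above the lowest 3 score deciles of Veh that had no T0 peak, and it stood just above that limit. The other 4 Myd88 regions without a T0 peak were weaker and farther away. Those 94720 and 75831 bp downstream and 94671 bp upstream had a peak only in Veh, at percentiles of 9.59, 17.4 and 6.14, and the one 61111 bp upstream had one in Veh (3.38) and LPS (0.104).

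Ticam1, on the minus strand of chr17, had 16 regions, of which 2 were nearest to its own RefSeq start site. At that site (chr17:56276641-56277211) the scores were 959 for Veh, 644 for T0, 718 for LPS and 848 for T0-LPS. Of the 16 regions 14 had a peak in all 4 lists. The exceptions were a region 61227 bp upstream in an intron of Kdm4b, with a peak in Veh alone (percentile 9.01), and one 56755 bp downstream near Dpp9 with 28.2 for Veh, 8.73 for T0, 18.6 for LPS and none for T0-LPS. A region 10476 bp downstream had percentiles of 57.8, 46.7, 69.6 and 71.2 in Veh, T0, LPS and T0-LPS, 24.4 points higher in T0-LPS than in T0. With the scores of its peaks summed, the difference turned to -1.2 points. One 98338 bp upstream had 20.1, 33.3, 24.6 and 7.46, highest in T0 and lowest in T0-LPS.

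Ticam2, on the minus strand of chr18, encodes the bridging adaptor TRAM. Each of its 12 regions had a peak in both lists with LPS, and none lost its peak with T0901317 in either setting. At the start site (chr18:46574140-46574647) the percentiles were 64.2 for Veh, 69.7 for T0, 80.0 for LPS and 72.5 for T0-LPS. The region 1898 bp upstream, in an intron of Tmed7, had 13.5, 9.55, 46.0 and 37.4 in the same order, and the one 58511 bp downstream, in an intron of Fem1c, had 20.4, 7.04, 45.3 and 33.5. Both were therefore low without LPS, with or without T0901317, and of middle rank with it. A region 40743 bp downstream had no peak in Veh or T0 and weak ones in LPS (9.91) and T0-LPS (1.59). The region 1516 bp downstream, in an intron of Ticam2, had 60.1 for Veh, 59.0 for T0, 63.3 for LPS and 42.2 for T0-LPS. It was 21.1 points lower in T0-LPS than in LPS.

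Irak2, on the plus strand of chr6, encodes an IRAK family kinase that acts below MyD88, and it had 20 regions. At its start site (chr6:113638247-113638686) the percentiles were 75.9 for Veh, 70.1 for T0, 76.7 for LPS and 71.9 for T0-LPS. Inside the gene, the region 30430 bp downstream (chr6:113668605-113669189) had scores of 426 for Veh, 183 for T0, 605 for LPS and 515 for T0-LPS. Its percentiles were 56.0, 27.8, 78.9 and 75.9, lowest in T0 and similar in both LPS lists. It was 28.2 points lower in T0 than in Veh, 22.9 points higher in LPS than in Veh and 48.1 points higher in T0-LPS than in T0. The latter difference was reached by 155 of 26831 regions (0.578%). The region 25072 bp downstream had the same percentile in Veh, 56.0, but 21.7 in T0, and it stood at 55.3 in LPS and 48.4 in T0-LPS. Its 34.3 points between Veh and T0 were the largest difference of the 10 genes in that comparison, reached by 233 of 28857 regions (0.807%). The region 15830 bp downstream had 45.6, 43.9, 70.7 and 56.0 in Veh, T0, LPS and T0-LPS, and the one 6549 bp downstream 74.3, 60.2, 89.6 and 80.7.

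Of the 20 Irak2 regions 7 lacked a peak in some list, and all 7 lay inside the gene. The regions 21344 and 23221 bp downstream had peaks only with LPS, at percentiles of 12.2 in LPS and 4.93 in T0-LPS for the former and 26.9 and 29.7 for the latter. The one 11125 bp downstream had a peak only in LPS (2.69). The regions 11798 and 52466 bp downstream had peaks in Veh (8.33 and 9.01) and LPS (0.0392 and 2.34) and in neither T0901317 list. The region 16739 bp downstream, just above, had peaks in Veh (12.6) and T0-LPS (17.1) alone, a pattern held by 387 of all 37648 regions (1.03%). The one 41774 bp downstream had 29.0 for Veh, 17.8 for T0, 3.88 for LPS and none for T0-LPS. Near the far end of the gene, the region 54243 bp downstream had 34.2, 28.4, 25.3 and 3.90, lowest in T0-LPS, and 76006 bp downstream the percentiles were 53.4, 51.2, 40.7 and 28.2.

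Irak3, on the minus strand of chr10, encodes the inhibitory family member IRAK-M. At its start site (chr10:120201151-120201807) the scores were 514 for Veh, 270 for T0, 590 for LPS and 586 for T0-LPS. The percentiles were 64.7, 44.6, 77.9 and 81.4, so the T0 list stood apart on the low side and the T0901317 list with LPS did not. The difference was 20.1 points between Veh and T0, which 10.2% of all regions reached (13.4 points with lists of equal length), and 36.8 points between T0 and T0-LPS, which 1.52% reached. A pair of neighbouring intronic regions 12172 and 12721 bp downstream was strongest in Veh. The former had percentiles of 35.8 in Veh, 15.8 in T0 and 2.43 in LPS and no T0-LPS peak, and the latter had a peak only in Veh, at 25.8. The difference of the former between Veh and T0 rounds to -20.0 but fell just short of 20 points, the limit being applied to unrounded values. The region 61714 bp downstream had 32.6, 14.3 and 8.62 in Veh, T0 and LPS and no T0-LPS peak. Upstream, the regions at 45475 and 50842 bp had peaks only in Veh (14.2 and 3.68), and one at 7678 bp, in an intron of Tmbim4, lacked a peak only in T0 (21.4 in Veh, 26.9 in LPS and 25.0 in T0-LPS).

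Traf6, on the plus strand of chr2, encodes the ubiquitin ligase on which the MyD88 branch converges. Its start site (chr2:101678151-101678797) had scores of 1249 for Veh, 1034 for T0, 975 for LPS and 906 for T0-LPS. A weak intronic region 963 bp downstream had a peak only in T0-LPS (percentile 3.13). The peak numbers of Veh, T0 and LPS each left a gap there for a filtered peak. The region 54558 bp downstream, in an intron of Prr5l and with Traf6 as its nearest coding start site, had percentiles of 43.1 for Veh, 25.0 for T0, 65.5 for LPS and 65.2 for T0-LPS, higher with LPS and alike in both LPS lists. In contrast, the region 84191 bp downstream in the same gene had 42.6, 38.8, 19.9 and 13.0, lower with LPS. A region 58066 bp upstream had peaks only in LPS (22.8) and T0-LPS (4.93), and those 21045 and 88402 bp downstream only in Veh (6.14 and 12.6).

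Across the 10 genes, T0901317 in resting macrophages went in the full lists with absent peaks and not with added ones, at a share close to that over all regions. Of 118 regions with a Veh peak, 21 had no T0 peak (17.8%, Wilson 95% interval 11.9 to 25.7%, which like all intervals here covers counting error only), against a background of 18.1% of all 35222 regions with a Veh peak. They lay at 8 genes, 5 of them at Myd88, 4 at Irak3, 3 each at Cd14 and Irak2, 2 each at Ly96 and Traf6 and 1 each at Tlr2 and Ticam1, and none at Tlr4 or Ticam2. Of the 21, 20 were in the lowest 3 score deciles of Veh, where 60.6% of 33 regions were absent against 55.6% of all regions there. For 12 of the 21 the numbering of the T0 peaks left no gap for a filtered peak, and 9 had one, beside 37.4% of all such regions. With each list cut to its 29839 strongest peaks, 5 of 100 regions (5.00%) had a Veh peak and no T0 peak, against 7.70% of all, and 2 of 97 (2.06%, against 5.76%) the reverse. In the full lists no region had a T0 peak and no Veh peak (0 of 97, with an upper limit of 3.81%), where the background was 0.729%, and in the lowest 3 deciles 0 of 22, where it was 2.30%. Among the 97 regions in both lists, the rank was lower by 20 points or more in T0 for 4 (Tlr2, 2 of Irak2 and the Irak3 start site) against 10.4% of all regions, and higher by as much for 0 against 0.0762%. The median difference was -5.74 points, beside -5.58 over all regions. Weak peaks were missing from the shorter T0 list, which lowers the percentile of those that remained, and among the 92 regions in all 4 lists ranked against each other the median was 0.04, with 2 regions higher and 3 lower by 20 points or more. With lists of equal length 2 were higher and 2 lower.

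LPS alone went with absent and with added peaks, most of them weak. Of 118 regions with a Veh peak, 12 had no LPS peak (10.2%, 5.91 to 16.9%) against 13.0% of all, and all 12 were in the lowest 3 deciles, where the share was 36.4% of 33 against 39.0%. With lists of equal length they were 6 of 100 (6.00%, against 9.94%). The 12 were 3 each at Myd88 and Irak3, 2 at Traf6 and 1 each at Tlr2, Cd14, Ticam1 and Irak2. Of 114 regions with an LPS peak, 8 had no Veh peak (7.02%, 3.60 to 13.2%) against 6.14% of all, and in the lowest 3 deciles 6 of 25 (24.0%) against 16.7%. These 8 regions lay at 4 genes, 3 each at Cd14 and Irak2 and 1 each at Ticam2 and Traf6, and 6 of them had a T0-LPS peak too. Of all 2002 regions with an LPS peak and no Veh peak, 1011 had peaks in LPS and T0-LPS alone and 51 in T0 as well. For 6 of the 8 the Veh peak numbers left no gap, the exceptions being the Cd14 region 35197 bp downstream and the Traf6 region. A gap was left at 38.5% of all such regions. Of the 106 regions in both lists, 9 ranked higher in LPS by 20 points or more, beside 3.92% of all regions, and 5 ranked lower by as much, beside 9.14%. The 9 were at Tlr4, the Tlr2 start site, Cd14 (2), Ticam2 (2), Irak2 (2) and Traf6, and the 5 were at Ly96, Irak2, Irak3 (2) and Traf6. Among the 92 regions in all lists ranked against each other, 12 were higher by 20 points or more (6.14% of all) and 0 lower (6.89% of all). The 3 added were the Ticam2 start site and the Irak2 regions 6549 bp downstream and 33665 bp upstream, and 4 of the 5 lower ones had no T0-LPS peak and so were not ranked.

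**Figure D3:**
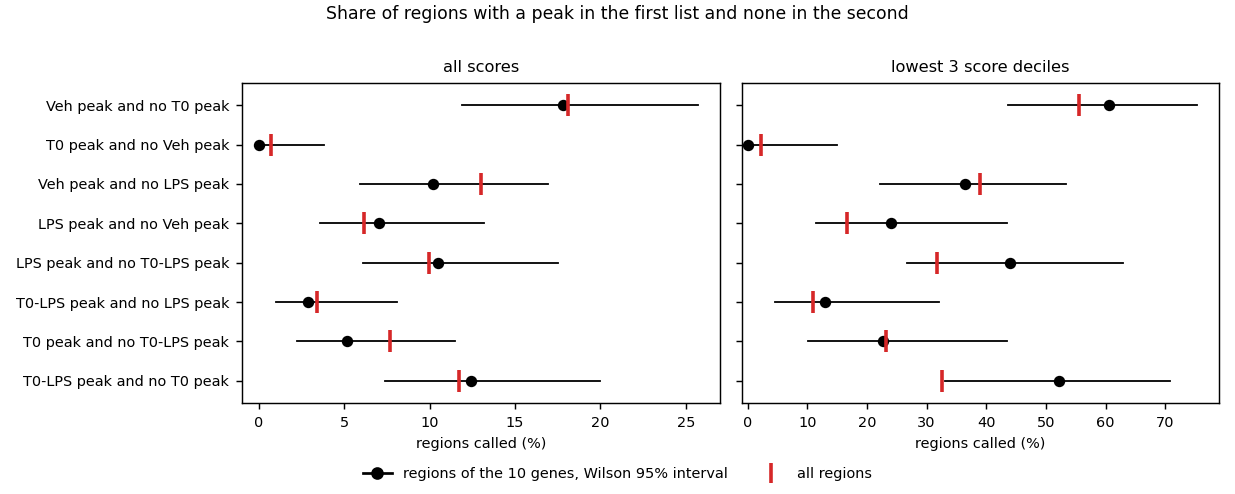
Share of regions (horizontal axis, %) that had a peak in the first list named and none in the second, for the regions of the 10 genes (points, with Wilson 95% intervals for counting error) and for all regions (red ticks), over all scores on the left and in the lowest 3 score deciles of the first list on the right. Over all scores each red tick falls inside the interval, and in the lowest deciles only the tick for T0-LPS peaks absent from T0, at 32.6%, falls outside, just below an interval from 33.0 to 70.8%.

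Under LPS, T0901317 went in the full lists with more absent than added peaks, at shares near those over all regions, but not in lists of equal length. Of 114 regions with an LPS peak, 12 had no T0-LPS peak (10.5%, 6.12 to 17.5%) against 9.97% of all, and 11 of the 12 were in the lowest 3 deciles (44.0% of 25, against 31.7%). They lay at Irak2 (4), Ly96 (3), Irak3 (2), Cd14, Myd88 and Ticam1. For 8 of the 12 the T0-LPS peak numbers left no gap, and 4 had one, the Cd14 region among them, beside 39.2% of all such regions. With lists of equal length the count was 3 of 102 (2.94%, against 6.73%), and as many, 3 of 102 (2.94%, against 6.09%), had a T0-LPS peak and no LPS peak. Of the 12, 2 had no Veh peak either, the Cd14 region 35197 bp downstream and the Irak2 region 11125 bp downstream. Both had a peak in LPS alone, as did 907 of all 3254 regions with an LPS peak and no T0-LPS peak. Another 33 of those had one in LPS and T0 alone. Of 105 regions with a T0-LPS peak, 3 had no LPS peak (2.86%, 0.976 to 8.07%, background 3.37%), at Ly96, Irak2 and Traf6, all in the lowest 3 deciles (13.0% of 23, against 10.9%). Of 102 regions in both lists, 4 ranked lower in T0-LPS by 20 points or more (4.36% of all did), at Tlr2, the Myd88 start site, Ticam2 and Irak2, and 0 ranked higher by as much (0.929%). The median difference was -2.88 points, beside -1.76 over all regions. This split did not hold under the other rankings, as 1 region was higher and 1 lower among the 92 regions in all lists, whose median difference was -0.36, and 1 was higher and 0 lower with lists of equal length. The 9 regions that ranked 20 points or more higher in LPS than in Veh were picked on their LPS rank. None ranked lower in T0-LPS than in LPS by that much. The 4.36% of all regions that did were not picked in this way, and 9 regions are too few to tell such a share from none. No share was computed for all regions picked alike, so nothing is drawn from this count. The differences of the 9 regions between LPS and T0-LPS ran from -15.8 points at Cd14 to 7.3 points at the Tlr2 start site. They were positive only at that start site and at the Cd14 region 6658 bp downstream (3.1).

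LPS in cells that had received T0901317 went in the full lists with more added than absent peaks, the added ones at a share near that over all regions. Of 105 regions with a T0-LPS peak, 13 had no T0 peak (12.4%, 7.38 to 20.0%) against 11.7% of all. In the lowest 3 deciles the count was 12 of 23 (52.2%, 33.0 to 70.8%) against 32.6%. They lay at Cd14 (4), Irak2 (3), Traf6 (2) and Ly96, Myd88, Ticam2 and Irak3. For 10 of the 13 the T0 peak numbers left no gap, and 3 had one, beside 34.3% of all such regions. Of 97 regions with a T0 peak, 5 had no T0-LPS peak (5.15%, 2.22 to 11.5%, background 7.70%), all of them in the lowest 3 deciles (22.7% of 22, against 23.2%), 2 at Irak3 and 1 each at Ly96, Ticam1 and Irak2. These 5 had peaks in the other 3 lists. Of 92 regions in both, 12 ranked higher in T0-LPS by 20 points or more (7.76% of all) and 4 lower (5.62%). The 12 were at Irak2 (3), Cd14 (2), Ticam2 (2), Tlr2 (2), Ticam1 (the region that turned with summed scores), Irak3 and Traf6, and the 4 at Irak2 (2), Ticam1 and Traf6. This split was smaller among the 92 regions in all 4 lists ranked against each other. There 12 were higher by 20 points or more (6.82% of all) and 8 lower (6.99%). With lists of equal length 10 were higher and 4 lower. The 4 comparisons share lists in pairs, so that a weak region of 1 list enters 2 of them.

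**Figure D4:**
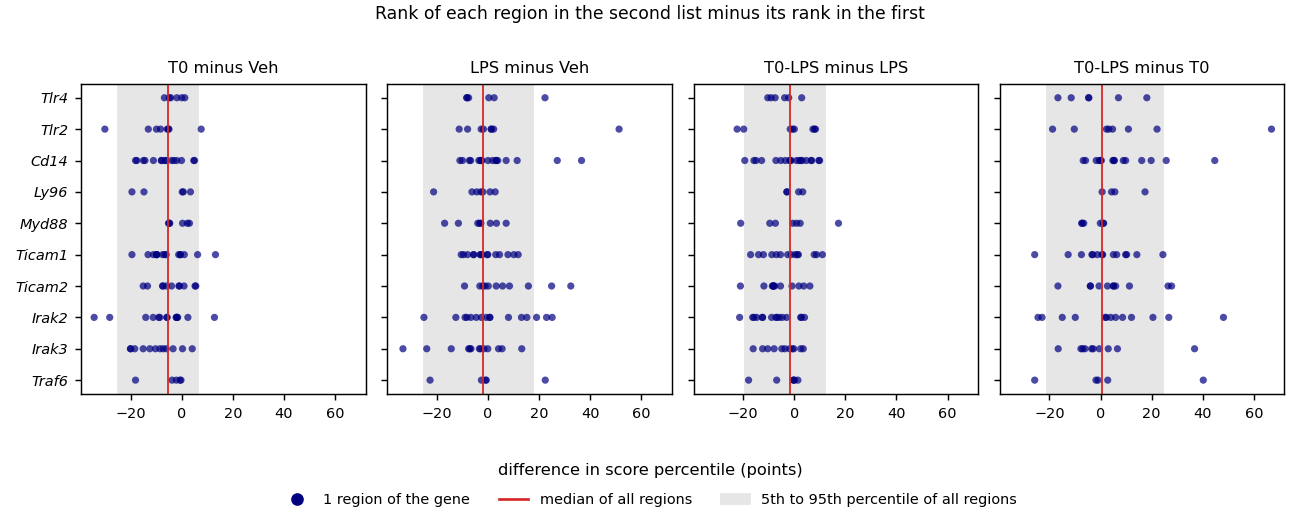
Difference in score percentile (horizontal axis, points) for each region of the 10 genes with a peak in both lists, with 1 point per region, a red line at the median of all regions and a grey band from their 5th to 95th percentile. The Tlr2 start site stands farthest to the right, at 51.3 points in LPS minus Veh and 66.9 in T0-LPS minus T0, and no point of T0 minus Veh lies above 13.2.

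The regions lay mostly outside coding sequence. Their midpoints fell in introns in 52 cases, in intergenic sequence in 46, in untranslated exons in 21 and in other exons in 9. Within 1 kb of a RefSeq coding start site were 47 of the 128 (36.7%), beside 33.2% of all regions on the main chromosomes. For 45 (35.2%) the nearest such site was that of the gene they were assigned to, and the others may belong to neighbours. A peak in all 4 lists was found for 92 (71.9%, beside 70.2% of all), in Veh alone for 11 (8.59% and 7.73%) and in both LPS lists alone for 6 (4.69% and 2.69%). Where both lists had a single peak, T0 peaks were narrower than Veh peaks at 77 of 94 regions (81.9%, beside 87.6% of all), and LPS peaks were narrower than Veh peaks at 63 of 103 (61.2% and 67.8%). T0-LPS peaks were narrower than LPS peaks at 68 of 101 (67.3% and 63.9%) and narrower than T0 peaks at 38 of 89 (42.7% and 44.9%).

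Motifs were searched on both strands in the central 200 bases of each region. NF-kB, the factor family at the end of the MyD88 branch, had a match in 7 of the 128 regions (5.47%, beside 4.30% of all 37620 regions searched). Of the 7, 2 were among the 10 regions with peaks only in LPS lists (17.1% of all such regions had one), the Cd14 region found in LPS alone and the Traf6 region found in T0-LPS alone. Another 2 were among the 9 regions at least 20 points higher in LPS than in Veh (21.1% of all such regions), the Tlr2 start site and the Irak2 region 30430 bp downstream printed above. The Myd88 start site, a region 43804 bp downstream of Tlr2 and one at the Xylb start site, 16177 bp upstream of Myd88, held the rest. PU.1 (GAGGAAGT), the lineage factor of macrophages, matched in 14 regions (10.9% and 8.55%), and AP-1 (TGAGTCA) in 17 (13.3% and 13.4%). PU.1 matched in 3 of the 10 regions with peaks only in LPS lists (beside 6.15% of all such regions). C/EBP (TTGCNNAA) matched in 11 (8.59% and 10.7%) and the ISRE core (GAAANNGAA) in 8 (6.25% and 8.06%). The nuclear receptor motif AGGTCA matched in 14 regions (10.9% and 11.9%). Its direct repeat with 4 bases between, the form bound by LXR and its partner RXR, matched with up to 2 mismatches in 2 (1.56% and 1.94%), a Cd14 region with a peak in all lists and the Myd88 region 94671 bp upstream, found in Veh alone. Of the 21 regions without a T0 peak, 3 had an AGGTCA match (14.3%), beside 11.8% of all such regions. Of the 10 regions with peaks only in LPS lists, 3 matched AGGTCA (beside 13.0% of all such regions), as many as PU.1. In the same 10, C/EBP matched in 2 (15.5% of all), AP-1 in 1 (13.3%), and the ISRE core (12.7%) and the direct repeat (2.13%) in 0.

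A chosen list of 37 other genes of TLR signalling, from other TLRs and co-receptors to the kinases and ubiquitin enzymes further down, had 351 regions. Neighbours such as Tlr1 and Tlr6, or Tlr7 and Tlr8, shared most of theirs, which entered the totals once. A start-site region was found for 34 of them and was held by all 4 lists for 26, beside 87.9% of RefSeq genes with such a region. The shares below are set against those over all regions, and the shares of single genes rest on few regions each. Of 322 regions with a Veh peak, 52 had no T0 peak (16.1%, against 18.1%). The highest shares were at Tab2 (3 of 6), a partner of the kinase TAK1, Pik3ap1 (5 of 13), an adaptor that links TLRs to PI3 kinase, and Tlr6 (3 of 8), a partner of TLR2. Of 271 regions with a T0 peak, 1 had no Veh peak (0.369%, against 0.729%), at the flagellin receptor gene Tlr5. In LPS against Veh, 34 of 322 regions were absent (10.6%, against 13.0%), with the highest shares at Cd180 (4 of 12), Tab1 (4 of 13) and Tlr1 and Tlr6 (2 of 8 each). Added were 23 of 311 (7.40%, against 6.14%), with the highest shares at Tlr1, Tlr6 and Ube2n (2 of 8 each). In T0-LPS against LPS, 29 of 311 were absent (9.32%, against 9.97%), with the highest shares at Tollip (1 of 3), Chuk (2 of 6) and Pik3ap1 (4 of 14). Added were 8 of 290 (2.76%, against 3.37%), of which 3 of 16 regions at Tlr9 and 1 of 11 at each of Tlr7, Pik3ap1 and Ikbke. In T0-LPS against T0, 17 of 271 were absent (6.27%, against 7.70%), with the highest shares at Tlr5 (2 of 6), Chuk (1 of 4) and Pik3ap1 (2 of 8). Added were 36 of 290 (12.4%, against 11.7%), with the highest shares at Tab2 (3 of 6), Pik3ap1 (5 of 11) and Tlr7 (4 of 11).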

How the data were processed

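Per the submitters' processing notes and the study's methods, the authors trimmed adaptors (cutadapt), aligned reads to mm10 (Bowtie2), removed duplicates (SAMtools), called peaks with MACS2 at q = 0.001 on the 4 pooled libraries of a group, and kept those at enhancers marked in other macrophages. The 4 deposited lists give position, name and a score per peak. That score has no header. Here peaks that shared at least 1 bp were merged and scores ranked within each list (Python 3.11.15, NumPy 2.4.6), with the highest score standing for a region. TSSs and exons came from GENCODE vM21 and curated starts from RefSeq GRCm38.p6. Numbers in peak names run along the chromosome, and a missing number was taken as room for a filtered peak. An absence, and a difference of 20 points, were fixed thresholds with no test. The calls were tested on simulated data. Named were, for every gene, the region at its start, regions without a peak in some list and those past 20 points. Of the other TLR signalling genes, those with the 3 highest shares were named. Genes, lists and thresholds were chosen with earlier results of these data known. Alternatives were an equal list length, a score of 100, a 50% reciprocal overlap, a 50 kb window, nearest genes, other TSSs, removal of regions with room, and other percentiles. One further list of cell type markers is not reported here.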

Additional observations from a re-analysis of the deposited data

Results flagged for a closer look

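The Ticam1 region 98338 bp upstream differed in the direction of its T0901317 difference with and without LPS: T0 minus Veh was 13.2 points and T0-LPS minus LPS -17.1 points, a gap of -30.3 points. The Irak2 region 16739 bp downstream had a peak in Veh and T0-LPS and none in T0 or LPS. Counting an absent peak as percentile 0, its difference was -12.6 points for T0 and for LPS in cells without the other agent, and 17.1 points in cells with it, a gap of 29.7 points. With 1 pooled list per group neither difference was tested.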

How the results depend on the processing

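The counts depended on how lists were cut. With lists of equal length, regions with a Veh peak and none in T0 numbered 5, T0 peaks absent from Veh 2, Veh peaks absent from LPS 6 and LPS peaks absent from T0-LPS 3, and 1 region moved by 20 points or more between LPS and T0-LPS (higher in T0-LPS). That setting drops the weakest peaks of the 3 longer lists. With a 50% reciprocal overlap, T0 peaks absent from Veh numbered 3 (3.09%, against 4.91% of all) and T0 peaks absent from T0-LPS 8 (8.25%, against 10.7%). With a minimum score of 100, T0 peaks absent from T0-LPS numbered 8 and T0-LPS peaks absent from T0 8. Within 50 kb, which holds fewer regions, Veh peaks absent from T0 numbered 11 (13.4%) and from LPS 5 (6.10%), LPS peaks absent from T0-LPS 7 (8.33%) and T0 peaks absent from T0-LPS 3 (4.23%). Among regions nearest to the gene itself these numbered 8 (20.5%), 4 (10.3%), 4 (10.3%) and 1 (3.23%), with 4 LPS peaks absent from Veh (10.3%) and 8 T0-LPS peaks absent from T0 (21.1%). No share over all regions was computed for the 50 kb window or for nearest regions. Without regions that have room for a filtered peak, Veh peaks absent from T0 numbered 12 (10.2%, against 11.3% of all) and from LPS 5 (4.24%, against 7.68%). Among regions in all 4 lists, 2 moved by 20 points or more between LPS and T0-LPS, 1 in each direction. The other 46 counts stayed within 1.5 times, with moved regions counted in both directions together. Taken by direction, some changed more. Higher and lower counts follow for the full lists, for regions in all 4 lists and for lists of equal length. They were 0 and 4, 2 and 3, and 2 and 2 in T0 minus Veh. In LPS minus Veh they were 9 and 5, 12 and 0, and 10 and 1. In T0-LPS minus T0 they were 12 and 4, 12 and 8, and 10 and 4. Of the 38 named differences of 20 points or more, 1 reversed, the Ticam1 region 10476 bp downstream in T0-LPS minus T0, at -1.2 points with summed scores. Another 5 fell below 20 points among regions in all 4 lists, where 28 did not, and 7 with lists of equal length, where 23 did not. Those that fell included the Irak3 start site in T0 minus Veh (-14.7 and -13.4) and the Tlr2 region 43804 bp downstream in T0-LPS minus LPS (-14.9 and -18.6). In the same comparison the Irak2 region 54243 bp downstream (-11.3, regions in all lists) and the Myd88 start site (-17.5, equal length) fell too. The remaining named differences had no value under that setting and were not checked there. In LPS minus Veh, the lower regions at Ly96 (45702 bp upstream), Irak3 (12172 and 61714 bp downstream) and Irak2 (41774 bp downstream) had none under either. A search of whole regions, chosen after seeing the data, found NF-kB matches in 16 of the 128 regions. Regions of other genes were not searched in this way, so no share can be set beside that count and nothing is drawn from it. No paired analysis was possible because each list pools 4 libraries and carries no replicate number, and for the same reason no library could be left out.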
